A study of Mus musculus with 14 samples.

Results

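Expression was described for 10 genes of the response to oxidative and electrophilic stress in the liver of mice fed a high-fat diet. The genes were the transcription factor Nrf2 (gene symbol Nfe2l2), 5 of its classical targets (Nqo1, Gclc, Gclm, Srxn1 and Txnrd1) and 4 glutathione S-transferases (GSTs; Gsta3, Gsta4, Gstm1 and Gstm3). They were 10 of 19938 genes with a probe set annotated to exactly 1 gene symbol. They had 11 such probe sets of 21789, because Gstm3 had a pair, and the probe set with the highest mean over all arrays stood for each gene.

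Nrf2 is held at a low level by Keap1, which directs it to ubiquitination and degradation. When electrophiles or oxidants modify Keap1, Nrf2 accumulates, pairs with a small Maf protein and binds antioxidant response elements in front of genes for quinone reduction, glutathione synthesis, thioredoxin reduction and conjugation. Because much of this control acts on the protein, the amount of Nfe2l2 mRNA is not a measure of Nrf2 activity. GSTs join glutathione to electrophiles, and the alpha and mu classes are abundant in mouse liver.

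The livers came from male C57BL/6 mice of 24 weeks of age that had eaten a high-fat diet for 20 weeks. The HFM mice (n = 7) received mesenchymal stem cells (MSCs) and the HFS mice (n = 7) received saline, and livers were taken 24 h later. The MSCs were human cells from the bone marrow of a single donor, labelled with a fluorescent protein and given through the tail vein, so HFM mice received cells of another species and HFS mice received no cells. All mice shared the diet, so no comparison with a control diet is made here. Each array held the RNA of 1 mouse, and the sample of 1 further mouse per group had been damaged on the way. Values are log2 expression from Affymetrix mouse gene arrays, and differences are HFM minus HFS, so that a negative difference means a lower value in HFM livers.

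Values of all probe sets ran from 1.33 to 14.06, the medians of the 14 arrays from 4.24 to 4.35, and pairs of arrays correlated at 0.970 to 0.991 over all probe sets. The label of liver was checked with hepatocyte markers, of which 12 of 14 had an unshared probe set. Their mean ran from 11.65 to 11.85 in HFM livers and from 11.69 to 11.81 in HFS livers. By limma 0 of the 12 passed an unadjusted p of 0.05 in either direction. Alb, albumin, had the smallest exact permutation p of the 12, at 0.00816 (p = 0.098 from limma). Its difference was small, at -0.09 ± 0.05 (SE), but 7 of 7 HFM livers lay below the HFS mean. No batch, litter or scan date was given in the sources used here.

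Promoter sequences from RefSeq (mouse build GRCm38.p6, from 250 bases before a transcription start to 50 after it, written 5′ to 3′ in the direction of the gene) were matched by symbol for 8 of the 10 genes, all but Gclc and Gsta4, with 11 windows in all. They were searched on both strands for TGACNNNGC, the core of the antioxidant response element. Matches were found in 5 genes, Nfe2l2, Gclm, Srxn1, Txnrd1 (1 of its 3 windows) and Gsta3, and none in the windows of Nqo1, Gstm1 and Gstm3. In all, 12.4% of 32851 windows held the same letters. The windows of Nfe2l2 (chr2:75704614-75704913, minus strand), Gclm (chr3:122245307-122245606, plus strand) and Gsta3 (chr1:21240335-21240634, plus strand) are shown as examples with the motif upstream of the start, with the match in capitals. The Txnrd1 window with a match, which is not shown, has it 92 bases upstream. The match lies 240 bases upstream in Nfe2l2, 134 in Gclm (on the opposite strand) and 121 in Gsta3.
Nfe2l2: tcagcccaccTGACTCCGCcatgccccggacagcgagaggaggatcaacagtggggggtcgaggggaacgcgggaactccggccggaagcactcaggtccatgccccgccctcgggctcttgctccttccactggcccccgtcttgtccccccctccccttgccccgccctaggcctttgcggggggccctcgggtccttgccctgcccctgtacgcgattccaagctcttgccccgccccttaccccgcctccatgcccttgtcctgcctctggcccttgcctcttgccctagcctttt
Gclm: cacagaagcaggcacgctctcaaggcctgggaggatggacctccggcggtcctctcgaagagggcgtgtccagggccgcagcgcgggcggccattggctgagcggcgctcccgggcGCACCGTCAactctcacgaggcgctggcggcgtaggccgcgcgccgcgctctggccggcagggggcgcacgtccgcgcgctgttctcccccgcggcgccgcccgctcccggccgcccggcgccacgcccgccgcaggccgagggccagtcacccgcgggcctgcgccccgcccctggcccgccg
Gsta3: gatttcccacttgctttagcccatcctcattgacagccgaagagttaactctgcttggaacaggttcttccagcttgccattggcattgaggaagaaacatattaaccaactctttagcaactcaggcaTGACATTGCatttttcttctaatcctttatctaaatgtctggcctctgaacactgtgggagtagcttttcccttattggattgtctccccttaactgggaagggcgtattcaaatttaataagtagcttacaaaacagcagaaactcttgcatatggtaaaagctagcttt

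The windows of Gstm1 (chr3:108017769-108018068, minus strand) and Gstm3 (chr3:107969125-107969424, minus strand), both of the mu class and on the same chromosome, are shown because these genes varied together between livers. Capitals mark their longest shared stretch, 16 bases just downstream of both starts. Gstm1 has another window (chr3:108017924-108018223, minus strand), whose longest stretch shared with Gstm3 is 10 bases, 24 bases upstream of its own start and 173 upstream of that of Gstm3.
Gstm1: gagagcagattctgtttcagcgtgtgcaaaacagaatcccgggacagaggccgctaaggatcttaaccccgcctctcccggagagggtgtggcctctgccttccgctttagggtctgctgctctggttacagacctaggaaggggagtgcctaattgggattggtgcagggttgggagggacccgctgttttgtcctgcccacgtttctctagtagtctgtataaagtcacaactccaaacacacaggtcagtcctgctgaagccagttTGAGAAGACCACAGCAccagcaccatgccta
Gstm3: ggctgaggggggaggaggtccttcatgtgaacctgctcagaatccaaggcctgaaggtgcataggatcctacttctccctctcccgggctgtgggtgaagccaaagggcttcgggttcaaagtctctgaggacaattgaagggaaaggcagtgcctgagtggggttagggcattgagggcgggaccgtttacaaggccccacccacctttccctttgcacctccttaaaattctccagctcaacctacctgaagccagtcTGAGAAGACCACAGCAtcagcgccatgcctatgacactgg

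None of the 10 genes passed a test for a difference between HFM and HFS livers. The count at an adjusted p under 0.05 was 0 of 10, where 0% of all 23410 tested probe sets passed. At an unadjusted p under 0.05 it was 0 higher and 0 lower, where 3.57% of all probe sets were higher and 2.9% lower in HFM livers. At the p and fold limits of the study's methods (unadjusted p under 0.01 and at least 1.2-fold, used here without the Bonferroni correction that the methods also name) it was again 0, where 0.453% of all probe sets were higher and 0.243% lower. The differences ran from -0.17 for Gstm1 to 0.06 for Gstm3, with 2 above 0, 8 below 0 and a median of -0.04, beside a median of 0.00 over all tested probe sets. All 10 of the 95% intervals held 0, and those of Gclm, Srxn1 and Txnrd1 lay within 1.2-fold in both directions. The other 7 intervals reached past 1.2-fold, so a change of that size in those genes lies within their error. In bulk liver, fewer cells of a type and less RNA per cell cannot be told apart.

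**Figure D1:**
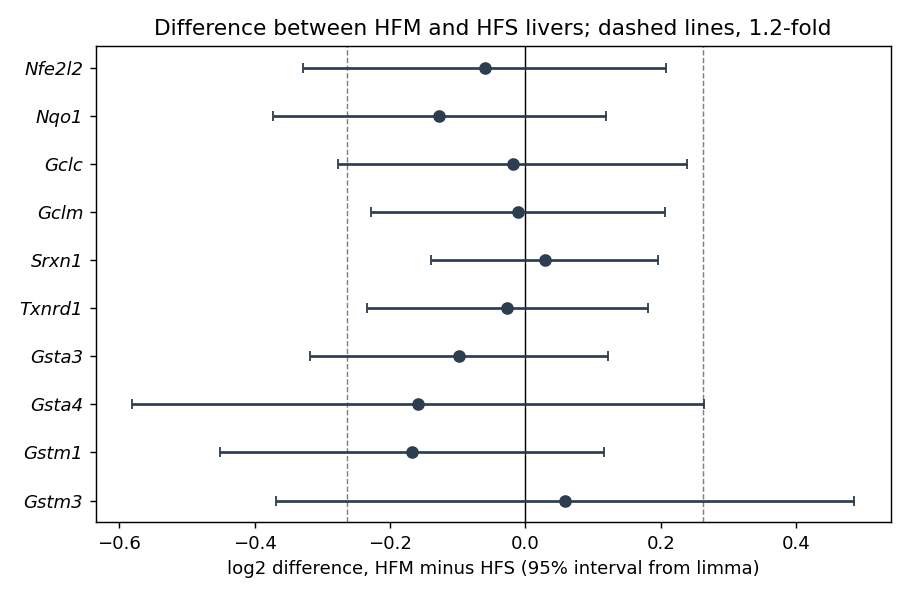
Log2 difference (x axis, HFM minus HFS) of the 10 genes (y axis), points with the 95% interval from limma over 7 HFM and 7 HFS livers, and dashed lines at 1.2-fold. All 10 intervals cross 0, and those of Gclm, Srxn1 and Txnrd1 lie between the dashed lines.

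Nfe2l2, the gene of Nrf2 itself, ran from 6.86 to 7.83 with a median of 7.66 in HFM livers, and from 7.30 to 7.83 with a median of 7.59 in HFS livers. The groups overlapped, and 1 HFM liver, HFM7, lay below all others. The means were 7.55 ± 0.32 in HFM and 7.61 ± 0.22 in HFS livers (SD, n = 7 each), a difference of -0.06 ± 0.13 (SE) with an adjusted p of 0.950 from limma and an exact permutation p of 0.734. Without HFM7 the difference was 0.06.

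Nqo1 encodes a quinone reductase that is widely used as a readout of Nrf2 activity. It ran from 4.18 to 4.79 with a median of 4.48 in HFM livers and from 4.39 to 5.09 with a median of 4.51 in HFS livers. The highest value was that of HFS4, and 2 HFM livers (HFM6 and HFM7) lay below all HFS livers. The means were 4.50 ± 0.24 in HFM and 4.63 ± 0.26 in HFS livers (SD, n = 7 each), with a difference of -0.13 ± 0.12 (SE), an adjusted p of 0.868 from limma and an exact permutation p of 0.355. The signal of this probe set lay close to the medians of the arrays.

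Gclc and Gclm encode the catalytic and the modifier subunit of glutamate-cysteine ligase, which makes the rate-limiting step of glutathione synthesis. Gclc ran from 9.70 to 10.31 with a median of 9.75 in HFM livers and from 9.59 to 10.40 with a median of 9.76 in HFS livers. Gclm ran from 8.68 to 9.16 with a median of 8.86 in HFM livers and from 8.53 to 9.36 with a median of 8.89 in HFS livers. For both subunits all 7 HFM values lay inside the range of the HFS values, whose extremes were HFS6 at the low end and HFS4 at the high end. The differences were -0.02 ± 0.12 (SE) for Gclc and -0.01 ± 0.10 for Gclm, with adjusted p of 0.986 and 0.989 from limma and exact permutation p of 0.889 and 0.925.

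Srxn1, sulfiredoxin, restores overoxidized peroxiredoxins, and Txnrd1 is the cytosolic thioredoxin reductase. Srxn1 ran from 6.59 to 6.87 with a median of 6.71 in HFM livers and from 6.42 to 6.94 with a median of 6.76 in HFS livers. All HFM values of Srxn1 again lay inside the range of HFS. Txnrd1 ran from 6.53 to 7.24 with a median of 6.97 in HFM livers and from 6.80 to 7.28 with a median of 6.95 in HFS livers. HFM7 alone lay below all HFS livers. The differences were 0.03 ± 0.08 (SE) for Srxn1 and -0.03 ± 0.10 for Txnrd1, with adjusted p of 0.961 and 0.971 from limma and exact permutation p of 0.716 and 0.811.

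Of the alpha-class GSTs, Gsta3 ran from 10.55 to 11.30 with a median of 10.88 in HFM livers and from 10.62 to 11.15 with a median of 10.96 in HFS livers. The enzyme is known in mice for conjugating the activated form of aflatoxin. Its difference was -0.10 ± 0.10 (SE), 6 of 7 HFM livers lay below the HFS mean, and the adjusted p was 0.888 from limma, with an exact permutation p of 0.410. Gsta4, which conjugates 4-hydroxynonenal, a product of lipid peroxidation, ran from 7.01 to 8.27 with a median of 7.76 in HFM livers and from 7.27 to 8.68 with a median of 7.78 in HFS livers. It spread over 1.67 log2 units between its lowest liver (HFM2) and its highest (HFS4). The difference was -0.16 ± 0.20 (SE), with an adjusted p of 0.906 from limma and an exact permutation p of 0.521.

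Of the mu-class GSTs, Gstm1 ran from 10.92 to 11.72 with a median of 11.30 in HFM livers and from 11.13 to 12.05 with a median of 11.48 in HFS livers. Its means were 11.32 ± 0.25 in HFM and 11.49 ± 0.33 in HFS livers (SD, n = 7 each). The difference of -0.17 ± 0.14 (SE) was 0.891-fold, with a 95% interval of 0.731-fold to 1.08-fold, and had the smallest p of the 10 genes, at an adjusted p of 0.845 from limma and an exact permutation p of 0.315. Gstm1 was lowest in HFM5 and highest in HFS4, and 5 of 7 HFM livers lay below the HFS mean.

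Gstm3 ran from 9.06 to 10.59 with a median of 9.53 in HFM livers and from 9.16 to 10.02 with a median of 9.66 in HFS livers. HFM4 and HFM6 lay above all HFS livers and HFM5 lay below them. The mean was 9.65 ± 0.53 in HFM and 9.59 ± 0.37 in HFS livers (SD, n = 7 each), while the order of the medians was the opposite. The difference was 0.06 ± 0.20 (SE), with an adjusted p of 0.970 from limma and an exact permutation p of 0.816, and it was -0.10 without HFM4, -0.02 without HFM6 and -0.01 without HFS1. The other probe set of Gstm3 followed the main one over the 14 livers (r = 0.94). It ran from 7.04 to 9.69 with a median of 8.24 in HFM livers and from 7.04 to 8.89 with a median of 8.29 in HFS livers, and its difference was 0.29 ± 0.34 (SE, adjusted p = 0.901 from limma). The number of this other probe set, 10501218, is close to that of Gstm1 (10501229), while that of the main one, 10362511, is not. Genomic positions of probe sets were not used here, so whether the main one reads the Gstm3 locus was not tested.

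**Figure D2:**
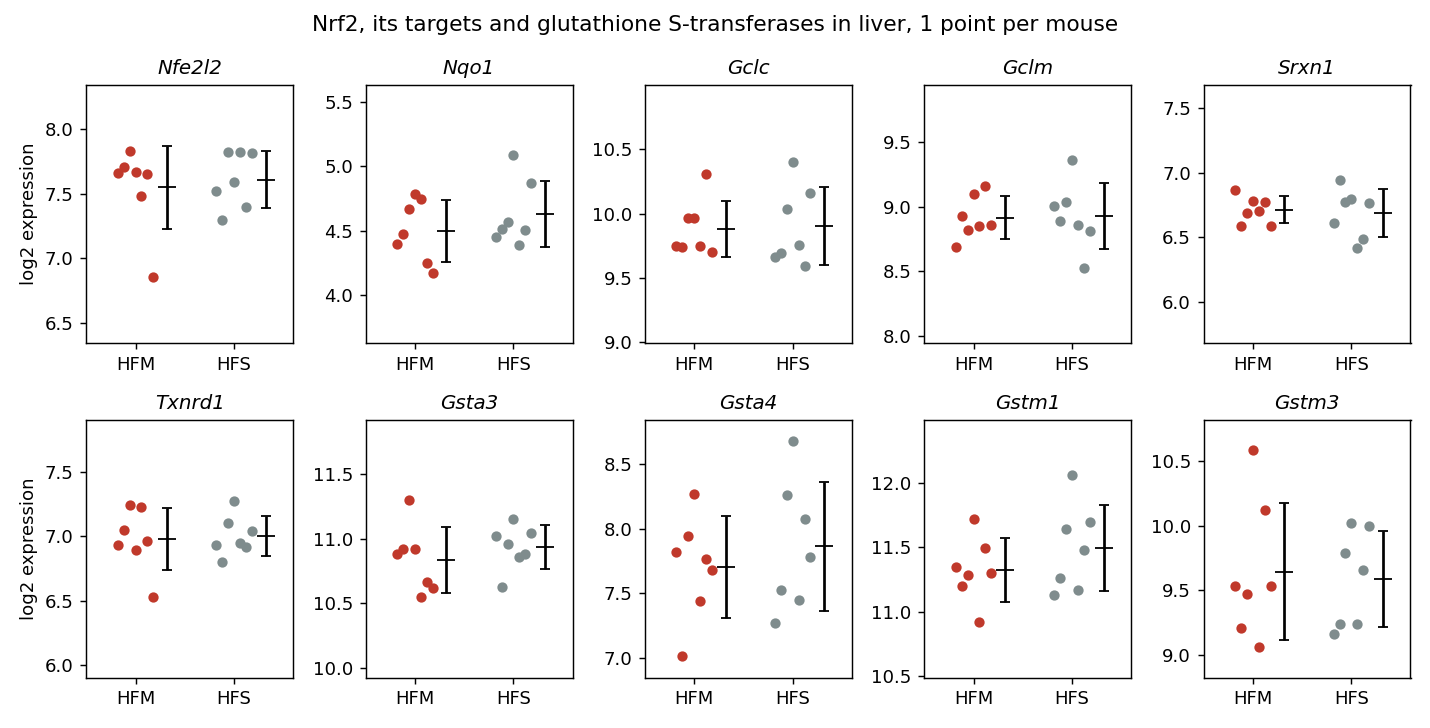
Log2 expression (y axis, spanning 2 log2 units in every panel) of the 10 genes in HFM livers (left, red) and HFS livers (right, gray), 1 point per mouse in the order of their numbers, with the mean and SD of 7 livers beside them. The groups overlap in all 10 panels, and Nfe2l2 shows 1 HFM liver at 6.86 below the rest.

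Livers of the same group differed from each other. HFS4 was highest in 6 of the 10 genes (Nqo1, Gclc, Gclm, Txnrd1, Gsta4 and Gstm1) and above the mean of all livers in 10 of 10, on average by 0.41 log2 units. HFS3 was above the mean in 10 of 10 as well, and HFS7 in 8. HFM7 was below the mean in 10 of 10, on average by -0.25, and was lowest in Nfe2l2, Nqo1 and Txnrd1. HFM4 was above the mean in 9 of 10, so high and low livers occurred in both groups. The hepatocyte marker mean was 11.74 in HFM7 and 11.70 in HFS4, both inside the range of the other livers, and the array median of HFM7, 4.35, was the highest of the 14. The part of array signal in these deviations was not tested. How often these livers were high or low over all probe sets was not counted. The counts are therefore not shown to be particular to the 10 genes, which also tended to vary together.

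The 10 genes tended to be high or low in the same livers. Of their 45 pairs, 44 correlated above 0 over the 14 livers, with a median r of 0.38 and a range from -0.04 (Srxn1 and Gsta3) to 0.85 (Gsta4 and Gstm1). After Benjamini-Hochberg adjustment over the 45 pairs, 7 passed 0.05 by a two-sided permutation test of Pearson's r, and 11 passed at an unadjusted p. The Pearson count was 3 without HFM7 and 3 without HFS4, and 4 when HFM2, HFS1, HFS3 or HFS7 was left out in turn. How often pairs of other genes correlate over these livers was not tested, so the counts are not shown to be particular to these 10 genes.

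Gstm1 and Gstm3 correlated at r = 0.837 (permutation p = 0.00026, adjusted p = 0.00585) and at a Spearman rho of 0.960 (permutation p = 1e-05, the smallest that the resamples can give, adjusted p = 0.00045). As deviations from the mean of each group their r was 0.899 (adjusted permutation p = 0.00045), and without HFM5 and HFS4, the livers farthest from the median of Gstm1, it was 0.899 (adjusted permutation p = 0.0045). This was the 1 pair of 45 that passed with all 4 measures. Both genes were lowest in HFM5, while Gstm1 was highest in HFS4 and Gstm3 in HFM4. The paralogs are similar in sequence and the probe sequences were not used here, so whether their probe sets share target RNA was not tested. The other probe set of Gstm3 was not used in these correlations.

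**Figure D3:**
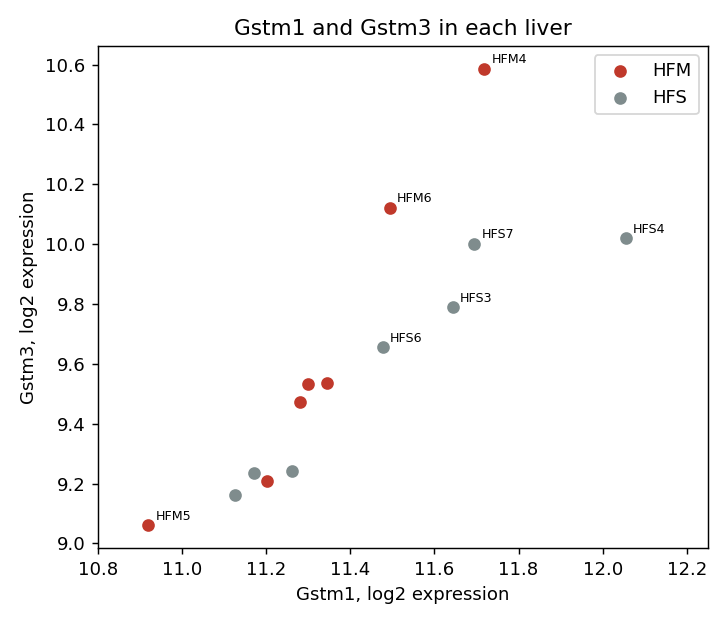
Log2 expression of Gstm1 (x axis) against Gstm3 (y axis) in 7 HFM (red) and 7 HFS (gray) livers, 1 point per mouse, with 7 livers named. The points of both groups rise together (r = 0.837), with HFM4 and HFM6 at higher Gstm3 for their Gstm1 than the HFS livers.

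Gsta4 varied with both mu-class genes. With Gstm1 its r was 0.846 (permutation p = 0.00016, adjusted p = 0.00585) and its rho 0.864 (permutation p = 0.00015, adjusted p = 0.00337), and without HFM2 and HFS4 r was 0.801 (adjusted permutation p = 0.0538). With Gstm3 its r was 0.733 (permutation p = 0.0029, adjusted p = 0.0326) and its rho 0.815 (permutation p = 0.00073, adjusted p = 0.0109), and without the same livers r was 0.745 (adjusted permutation p = 0.0777). The remaining GST, Gsta3, had no pair past the adjusted threshold.

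Gclc passed with Gclm and with both mu-class genes, and HFM6 and HFS4 were the livers farthest from its median. Gclc and Gclm had an r of 0.714 (permutation p = 0.00368, adjusted p = 0.0331) and a rho of 0.420 (permutation p = 0.137, adjusted p = 0.308). Without HFM6 and HFS4 their r was 0.366 (permutation p = 0.243). With any 1 mouse left out it ran from 0.556 to 0.807 and passed the adjusted threshold in 9 of 14 runs. Leaving out the livers farthest in Gclc also narrows its range, so the fall in r cannot show whether the relation rests on them. With Gstm1 the r of Gclc was 0.746 (permutation p = 0.00195, adjusted p = 0.0292), its rho 0.596 (permutation p = 0.027, adjusted p = 0.176) and its r without the same livers 0.645 (permutation p = 0.0228, adjusted p = 0.235). With Gstm3 its r was 0.681 (permutation p = 0.00752, adjusted p = 0.0483), its rho 0.596 (permutation p = 0.0274, adjusted p = 0.176) and its r without them 0.612 (permutation p = 0.0316, adjusted p = 0.237).

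Nqo1 and Txnrd1 had an r of 0.690 (permutation p = 0.00632, adjusted p = 0.0474) and a rho of 0.503 (permutation p = 0.0698, adjusted p = 0.261), and without HFS4 and HFS7 r was 0.633 (adjusted permutation p = 0.235). Nfe2l2 had 0 pairs past the adjusted threshold. Its closest partner among the 10 genes was Txnrd1, with r = 0.691 (permutation p = 0.00927, adjusted p = 0.0521) and rho = 0.538 (permutation p = 0.051, adjusted p = 0.243). Without HFM7 and HFS2 that r was 0.113 (permutation p = 0.726).

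**Figure D4:**
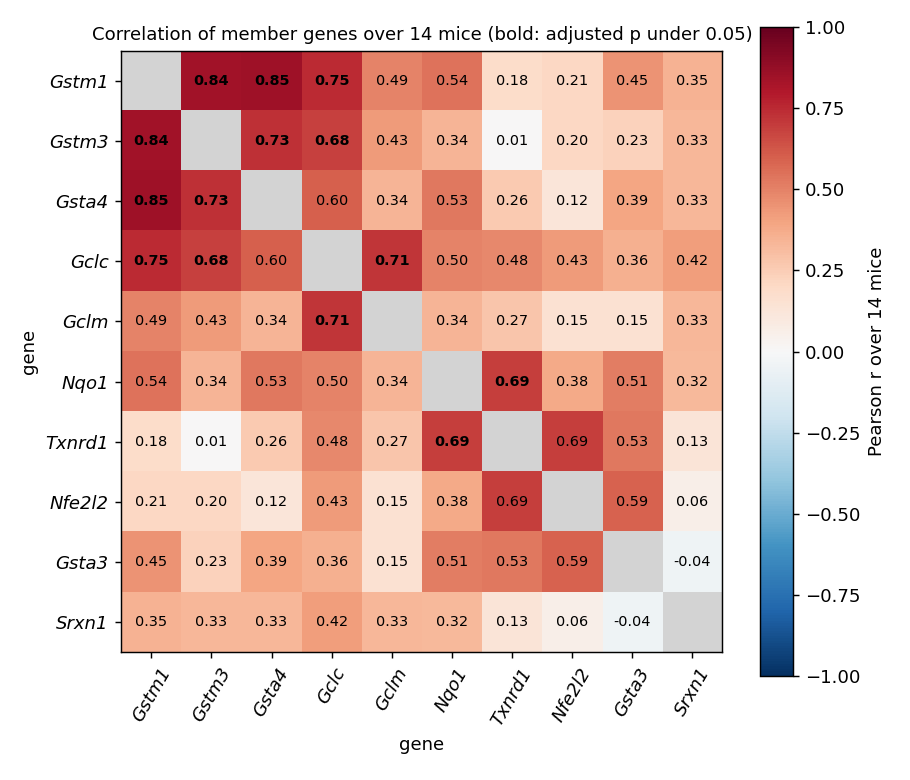
Pearson r over 14 livers for each pair of the 10 genes (both axes), from blue (below 0) to red (above 0), in bold where the adjusted permutation p was under 0.05. The GSTs Gstm1, Gstm3 and Gsta4 with Gclc form the reddest corner, with r from 0.60 to 0.85.

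For each gene the one most like it among 19928 others was found by Pearson's r over the 14 livers, as a description without a test because it was picked as the highest of many. The gene most like Gstm1 was Gstm4, another mu-class GST, at r = 0.89. That of Gsta3 was Ces1f, a liver carboxylesterase, at r = 0.89, and that of Nqo1 was Aox1, an aldehyde oxidase, at r = 0.88. For Gclm it was Azgp1 at r = 0.88, for Gclc Abca8b at 0.86 and for Srxn1 Tex22 at 0.83. Nfe2l2 was most like Thoc7, a subunit of a complex for mRNA export, at r = 0.96, and Txnrd1 was most like Sfpq, a splicing factor, at 0.95. Gsta4 was most like Olfr1395 at r = 0.85 and Gstm3 most like Camsap3 at 0.78. Spearman's rho of these relations ran from 0.72 (Srxn1 and Tex22) to 0.93 (Txnrd1 and Sfpq). Nfe2l2 and Txnrd1 were both lowest in HFM7, and the part of that liver in their r was not tested.

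The wider pathway was described by 5 further lists. None of their measured genes passed an adjusted p of 0.05, and the counts are at an unadjusted p under 0.05, to be read beside the 3.57% of all probe sets that were higher and the 2.9% that were lower.

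Of 17 regulators and partners of Nrf2, all measured, 2 were higher, 0 lower and 15 passed in neither direction, with a median difference of 0.04. They were Mafk, a small Maf partner of Nrf2, and Dpp3, a peptidase that binds Keap1. Mafk ran from 5.10 to 5.67 (median 5.41) in HFM livers and from 5.02 to 5.29 (median 5.20) in HFS livers, a difference of 0.17 ± 0.08 (SE, adjusted p = 0.770 from limma, exact permutation p = 0.0507). Dpp3 ran from 6.62 to 6.98 (median 6.86) in HFM and from 6.44 to 6.85 (median 6.70) in HFS livers, a difference of 0.17 ± 0.08 (SE, adjusted p = 0.770 from limma, exact permutation p = 0.0507). For both genes 4 of 7 HFM livers lay above all HFS livers. The next genes by p were Nfe2l1, a factor related to Nrf2, with a difference of 0.12 ± 0.08 (SE), and Sqstm1, which competes with Nrf2 for Keap1, with 0.12 ± 0.09. Neither passed. The count of 2 in this list was 0 when HFM3, HFM6, HFS1, HFS5 or HFS6 was left out.

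Of 39 other genes commonly listed as Nrf2 targets, 32 had an unshared probe set, and 1 was higher, 3 lower and 28 passed in neither direction, with a median difference of -0.01. The 1 higher gene was Hmox1, heme oxygenase 1, which degrades heme and is also strongly expressed in macrophages. It ran from 6.60 to 7.69 with a median of 7.16 in HFM livers and from 6.37 to 6.92 with a median of 6.49 in HFS livers, and 4 of 7 HFM livers lay above all HFS livers. The difference was 0.52 ± 0.16 (SE), or 1.44-fold, with an unadjusted p of 0.00341 and an adjusted p of 0.714 from limma and an exact permutation p of 0.0152. Hmox1 passed an unadjusted p of 0.01 and 1.2-fold with each mouse left out in turn, where the difference ran from 0.43 to 0.61.

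The 3 lower targets were Ephx1, microsomal epoxide hydrolase, Prdx1, a peroxiredoxin that reduces hydrogen peroxide with the help of thioredoxin, and Gpx2, a glutathione peroxidase. Ephx1 ran from 9.58 to 10.17 (median 9.73) in HFM and from 9.78 to 10.47 (median 10.16) in HFS livers, with a difference of -0.28 ± 0.12 (SE, adjusted p = 0.768 from limma, exact permutation p = 0.0571). Prdx1 ran from 10.09 to 10.59 (median 10.34) in HFM and from 10.28 to 10.86 (median 10.52) in HFS livers, with a difference of -0.22 ± 0.10 (SE, adjusted p = 0.768 from limma, exact permutation p = 0.0548). In each of the 3 genes 6 of 7 HFM livers lay below the HFS mean, and the groups overlapped. Gpx2 ran from 2.82 to 3.69 (median 3.31) in HFM and from 3.12 to 4.06 (median 3.57) in HFS livers, below the medians of the arrays in every liver, with a difference of -0.31 ± 0.13 (SE, adjusted p = 0.768 from limma, exact permutation p = 0.0682). The count of 4 in this list was 1 without HFM7, without HFS3 and without HFS4, and 2 without HFM2.

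Of 23 other GSTs, 20 had an unshared probe set, and 2 were higher, 1 lower and 17 passed in neither direction, with a median difference of 0.02. Gsta1, Gsta2 and Gstp2 were not analysed here as single genes. Hpgds, the GST of the sigma class that makes prostaglandin D, ran from 3.64 to 4.49 (median 4.19) in HFM and from 3.58 to 4.00 (median 3.74) in HFS livers. Of the HFM livers, 5 of 7 lay above all HFS livers. The difference was 0.37 ± 0.11 (SE), or 1.29-fold, with an unadjusted p of 0.00432 and an adjusted p of 0.714 from limma and an exact permutation p of 0.0169, and the unadjusted p was 0.0121 without HFM6, above the limit of 0.01. The means, 4.16 ± 0.30 in HFM and 3.78 ± 0.16 in HFS livers (SD, n = 7 each), lay below the medians of the arrays, where signal is low.

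Gstk1, the kappa-class GST of mitochondria and peroxisomes, ran from 9.19 to 9.53 (median 9.43) in HFM and from 8.55 to 9.42 (median 9.27) in HFS livers. All 7 HFM livers lay above the HFS mean, and the lowest livers were HFS4 at 8.55 and HFS3 at 8.67, the pair above the mean of all livers in each of the 10 genes. The difference was 0.29 ± 0.12 (SE, adjusted p = 0.768 from limma, exact permutation p = 0.0507). Gstcd, named for a GST-like domain, had a difference of -0.12 ± 0.06 (SE, adjusted p = 0.772 from limma, exact permutation p = 0.0198), with values below the medians of the arrays in every liver. Gstm4 had -0.27 ± 0.18 (SE) and did not pass. The count of 3 in this list was 1 without HFM3, without HFM5 and without HFS4.

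Hmox1 and Hpgds stand in gene lists that the study drew from these same livers, so their direction is not independent evidence. Markers of several cell types, but not of all those listed, had mostly positive differences as well. Of 14 macrophage markers measured, 14 had a difference above 0 and 5 (Cd5l, Marco, Cd68, C1qb and Mpeg1) passed as higher at the unadjusted threshold, with a median of 0.29. In that order their exact permutation p were 0.0472, 0.0624, 0.0763, 0.0711 and 0.0297, so Marco, Cd68 and C1qb were above 0.05 by that test. The mean of the list ran from 6.52 to 7.53 (HFM2) in HFM livers and from 6.26 to 7.30 (HFS5) in HFS livers. HFM2 was the highest liver for most of these markers, so the 14 differences are not independent. Of 9 neutrophil markers 8 had a difference above 0 (median 0.23, 1 passed as higher), and their mean ran from 3.68 to 5.03 in HFM livers and from 3.61 to 4.28 in HFS livers. The largest of these differences, that of S100a8, came with 1 high liver, HFM2 at 6.84. Its median was 3.57 in HFM and 3.59 in HFS livers. Ngp was 5.95 in HFM2, with a median of 3.01 in HFM and 2.97 in HFS livers. These medians lay below those of the arrays. Of 10 stellate cell markers 8 had a difference above 0 (median 0.20, 1 passed as higher), with means from 6.23 to 6.76 in HFM livers and from 6.29 to 6.55 in HFS livers. Of 10 endothelial markers 7 did (median 0.08, 1 passed as higher), with means from 6.10 to 6.43 in HFM livers and from 6.04 to 6.34 in HFS livers. Lymphocyte and cholangiocyte markers were more evenly split. Of 10 lymphocyte markers 6 were above 0 (median 0.01, 0 passed as higher and 1 as lower). Of 5 cholangiocyte markers 2 were above 0 and 3 below (median -0.04, 0 passed). The part of these cell types in the values of Hmox1 and Hpgds was not tested.

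Of 29 genes of the glutathione cycle and its supply, 27 were measured, and 1 was higher, 0 lower and 26 passed in neither direction, with a median difference of -0.01. The 1 gene was Cbs, cystathionine beta-synthase, which feeds cysteine synthesis from methionine. It ran from 9.19 to 9.72 (median 9.44) in HFM and from 8.78 to 9.46 (median 9.20) in HFS livers, with a difference of 0.26 ± 0.11 (SE, adjusted p = 0.768 from limma, exact permutation p = 0.0589). The glutathione peroxidases Gpx1 and Gpx4 had differences of 0.12 ± 0.07 and 0.20 ± 0.13 (SE), and the mitochondrial glutaredoxin Glrx5 of 0.11 ± 0.07. These did not pass. For Gpx1, 7 of 7 HFM livers lay above the HFS mean but 0 above all HFS livers, and the highest livers were HFS1 at 11.75 and HFS2 at 11.73. The count of 1 was 0 without HFM2, without HFM3 and without HFM7, and 2 without HFM5.

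Of 14 thioredoxins, reductases, peroxiredoxins and sestrins, 12 were measured, and 0 were higher, 1 lower (Prdx1, which is also among the Nrf2 targets) and 11 passed in neither direction, with a median difference of -0.00. Prdx2 had a difference of 0.15 ± 0.09 (SE), and Sesn3 and Sesn1, sestrins that take part in the control of growth under stress, had 0.16 ± 0.12 and 0.10 ± 0.07, none of which passed. The count of 1 was 0 without HFM1, HFM2, HFM7, HFS3, HFS4 or HFS7 and 2 without HFS6.

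**Figure D5:**
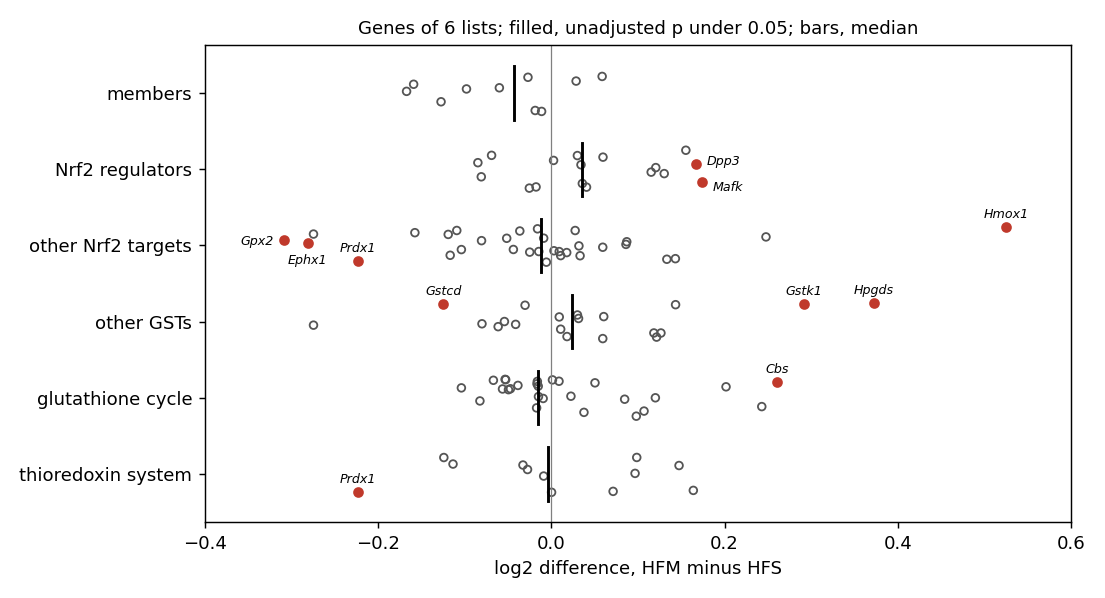
Log2 difference (x axis, HFM minus HFS) of each measured gene of 6 lists (y axis), filled and named where the unadjusted p was under 0.05, with vertical bars at the median of each list. The 10 members lie between -0.17 and 0.06 and none is filled, while Hmox1 at 0.52 and Hpgds at 0.37 lie farthest to the right.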

How the data were processed

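Liver RNA of 7 HFM and 7 HFS mice was hybridized to Affymetrix Mouse Gene ST arrays, 1 array per mouse. The authors summarized and normalized the probe intensities in Affymetrix Expression Console and deposited log2 values for each probe set. RMA is the algorithm named in the labels, whereas the study's methods name PLIER. Software versions and the build of the annotation were not given in the sources used here. No detection calls were used, and precision is limited by 7 mice per group. All 14 value columns were used (0 left out), grouped by their labels.

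Tests covered the 23410 probe sets annotated to 1 or more symbols, 21789 of them to a single symbol, and 12146 without a symbol were left out. The reference table held 21698 of the single symbols and changed 0, and probe sets were not filtered on signal. Differences came from limma 3.58.1 (lmFit and eBayes, R 4.3.3) without covariates, and were adjusted by Benjamini-Hochberg over all tested probe sets. Exact permutation tests of single genes were two-sided over all 3432 assignments of the mice, with a smallest p of 0.000583. Correlations over 14 mice were tested with 100000 resamples (numpy 2.4.6, with ranks from scipy 1.17.1). Those between members were adjusted over 45 pairs, and those with Saa1 and Lcn2 over their own 20 relations. Leaving out the pair of mice farthest from the median used the first gene named. Scripts were tested on simulated data.

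The members and lists were chosen with earlier results of these data known. Genes named are the 10 members, the 4 genes of smallest p in each of 5 lists and the gene most like each member. Chosen after their values were seen were the macrophage markers past an unadjusted p of 0.05, Alb, S100a8, Ngp, Saa1 and Lcn2. A gene of a list counts as measured only where it has a probe set with no other symbol. The labels number the mice of both groups from 1 to 7 without saying that a number is shared, so the groups were compared unpaired. The alternatives were a replicate block, quantile normalization, median centring, array weights, only the brighter probe sets, an unmoderated test, a prior that was trended and robust, averaging all probe sets of a gene, testing 1 probe set per gene or all rows, and leaving out each mouse. Added after seeing the data were the exact p for counts, correlations with each mouse left out, and the correlations with Saa1 and Lcn2. Promoter windows and motif matches came from RefSeq tables.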

Additional observations from a re-analysis of the deposited data

Results flagged for a closer look

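Among 58 groups tested (the 10 members and the genes named from the 5 lists, in HFM and in HFS livers), 2 had 1 liver far from the rest, judged by the gap to the nearest liver over the range of the group. Nfe2l2 was 6.86 in HFM7, where the nearest HFM liver was at 7.48, a gap of 0.639 of the range of the HFM livers. Mafk was 5.02 in HFS4, where the nearest HFS liver was at 5.18, a gap of 0.606 of the range. Chance alone flags about 1 in 20 groups by this measure, which is more than were found here, and the source of either value was not tested. HFM7 was also the lowest liver for Nqo1 and Txnrd1, and HFS4 the highest for 6 of the 10 members.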

How the results depend on the processing

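None of the 10 members passed an adjusted p of 0.05, an unadjusted p of 0.05 or the limits of the methods (unadjusted p under 0.01 and 1.2-fold) under any alternative run, Nqo1 being absent from the brighter probe sets. Differences close to 0 changed sign. Median centring gave 0.0085 for Gclc, 0.016 for Gclm and 0.000184 for Txnrd1, array weights gave 0.0068 for Gclc and 0.019 for Gclm, and quantile normalization gave -0.020 for Srxn1. With each mouse left out, the difference ran from -0.089 to 0.065 for Gclc, -0.078 to 0.061 for Gclm, -0.098 to 0.156 for Gstm3, -0.112 to 0.055 for Nfe2l2, -0.016 to 0.071 for Srxn1 and -0.071 to 0.047 for Txnrd1. Those of Nqo1 (-0.17 to -0.05), Gsta3 (-0.18 to -0.05), Gsta4 (-0.26 to -0.02) and Gstm1 (-0.23 to -0.07) stayed below 0.

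Counts at an unadjusted p under 0.05 in the other lists were less stable, and the cause was not tested. For the regulators the count of 2 was 0 with the replicate block, 0 in the brighter probe sets, 0 with a trended and robust prior, 0 by the exact test, and 1 with quantile normalization, array weights, an unmoderated test or all probe sets. For the other targets the count of 4 was 2 with median centring and 1 with an unmoderated test or the exact test. For the other GSTs the count of 3 was 1 with quantile normalization and 1 in the brighter probe sets. For the glutathione cycle the count of 1 was 0 with array weights, an unmoderated test or the exact test. For the thioredoxin system the count of 1 was 0 with median centring, an unmoderated test or the exact test. With each mouse left out, the counts ran from 0 to 2 for the regulators, 1 to 5 for the other targets, 1 to 3 for the other GSTs, 0 to 2 for the glutathione cycle and 0 to 2 for the thioredoxin system.

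The count of 7 pairs of members past an adjusted p of 0.05 was 3 by Spearman's rho and 1 without the pair of farthest mice. It ran from 3 to 10 with each mouse left out. As deviations from the mean of each group the same 7 pairs passed, with adjusted permutation p up to 0.0451. The relations with Saa1 or Lcn2 past that threshold ran from 0 to 1.

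Same-numbered mice did not deviate together (correlations from -0.20 to 0.14, with 1 of 7 over 0.1), and 0 of 7 HFM mice correlated best with the HFS mouse of their number. With the replicate block, 0 of the 10 members passed an unadjusted p of 0.05, and the counts were 0 for the regulators and 5 for the other targets.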

Other observations

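Saa1 and Lcn2, acute phase genes that the study names, were set against the 10 members over the 14 livers, a relation chosen after seeing the data. All 20 values of r were below 0, and 0 of 20 passed an adjusted permutation p of 0.05. The largest in size was that of Saa1 with Nqo1, at r = -0.658 (permutation p = 0.0103, adjusted p = 0.199) and rho = -0.727 (permutation p = 0.00435, adjusted p = 0.087). As deviations from the group means its r was -0.660 (adjusted permutation p = 0.11), and without HFS3 and HFS4, the livers farthest from the median of Saa1, it was -0.595 (adjusted permutation p = 0.519). Those livers had the lowest Saa1, at 4.47 and 4.22, and were above the mean of all livers in each of the 10 members. Without HFS3 and HFS4 the 20 values of r lay on both sides of 0, from -0.595 to 0.168 (Lcn2 with Gclm). The rho of Nfe2l2 over all 14 livers was above 0, at 0.033 with Saa1 and 0.095 with Lcn2. The 20 values are not independent, because the members tended to vary together.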
